A study of Mus musculus with 6 samples.

Results

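Dividing macrophages of mouse pancreatic tumours are macrophages that carry transcripts of the cell cycle. They were chosen by counts of unique molecular identifiers (UMIs), which count captured transcripts, in each cell. A member held at least 5 UMIs of the complement genes C1qa, C1qb and C1qc together, at least 5 of the myeloid genes Lyz2, Csf1r and Cd68, and at least 2 of the proliferation genes Mki67 and Top2a. It held none of the T cell gene Cd3e, the epithelial gene Epcam or the endothelial gene Cdh5, and at most 2 of the keratins Krt8, Krt18 and Krt19. This gave 701 members of 39928 cells in all. They are part of 6489 cells, here called C1q cells, that met every limit other than that on Mki67 and Top2a, and the remaining 5788 are called the other C1q cells.

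The cells came from tumours of 6 mice of the same engineered model of pancreatic cancer, all of which carried p53LSL.R172H/+ and Pdx1-Cretg/+. In this model a Cre recombinase under the Pdx1 promoter switches on mutant p53 in the pancreatic epithelium. Mice entered the study with tumours of 4 to 7 mm by ultrasound and were assigned to groups at random. The 3 vehicle mice received corn oil and water. The 3 treated mice received trametinib, an inhibitor of the kinase MEK, at 1 mg/kg, together with hydroxychloroquine, an inhibitor of lysosomal degradation, at 40 mg/kg, both by mouth. Tumours were collected 24 h after treatment, dissociated and run as 1 droplet library per mouse. No group received either drug alone.

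Tumour macrophages descend from blood monocytes and from macrophages that settled in the tissue earlier, and both can divide locally under the growth factor CSF1, whose receptor Csf1r signals in part through MEK. Mki67 encodes a nuclear protein of cycling cells that coats chromosomes in mitosis, and Top2a encodes the topoisomerase that untangles newly copied DNA. Genes of DNA replication peak early in the cycle and genes of mitosis late in it, so the levels of both groups describe where in the cycle a set of cells lies.

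Library totals ranged from 22996012 UMIs in vehicle 1, the smallest, to 126645602 in vehicle 3. Any pair of libraries shared between 0 and 24 cell barcodes. Depth differed between the groups where it matters for a rule on UMIs. The median member held 10880 UMIs in vehicle 1, 8720.5 in vehicle 2 and 8127 in vehicle 3, against 14943, 13325.5 and 16059.5 in treated 1 to 3. Every treated mouse was thus above every vehicle mouse. The other C1q cells held a median of 3533 to 4827 UMIs in vehicle and of 2896 to 12179 in treated mice. Vehicle 1 gave only 16 members and stood apart from the other mice in its summed profile, so results are also given without it where that changes them.

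The macrophage part of the label was largely set by the rule, which required UMIs of C1q and myeloid genes. All 10 macrophage markers of the list were present in the members of every mouse, which is therefore no separate test. Levels are given as CPM, the UMIs of a gene or list scaled to all UMIs of the same cells. The markers summed to 20852 to 48980 CPM in vehicle and to 44842 to 57060 CPM in treated members. Other C1q cells held more in every mouse, at 31572 to 53536 CPM in vehicle and 48755 to 63049 CPM in treated mice. T and NK cell markers were nearly absent, at 0 to 12.0 CPM, and Cd3e was at 0 by the rule. The 12 tumour epithelial markers summed to 677, 288 and 214 CPM in vehicle and 43.9, 34.2 and 113 CPM in treated members. The groups did not overlap, and 7 of the 12 were at 0 in vehicle 1. Other C1q cells held 130, 422 and 219 CPM in vehicle and 66.4, 58.3 and 155 CPM in treated mice. Cells with the highest doublet scores (Scrublet) were 0%, 7.95% and 14.4% of vehicle members and 2.78%, 3.19% and 4.63% of treated members. Fibroblast markers were present unevenly. Their summed level was 26.0, 3060 and 3841 CPM in the vehicle and 21.1, 227 and 1260 CPM in the treated mice. More than 2 fibroblast UMIs were found in 45 of 88 members of vehicle 2 and in 0 of 16 of vehicle 1. In vehicle 1 the neutrophil markers reached 11968 CPM, and 1 cell there held 2201 UMIs of S100a8 and S100a9. Treated 3 had 12435 CPM of the monocyte markers, against 766 to 1187 CPM in the members of the other mice. This was not particular to members, since the other C1q cells held 12254 CPM in treated 3 and 468 to 1056 CPM in the other mice. Results without cells holding fibroblast or neutrophil transcripts are given below for the share, the treated and vehicle members and the difference in response.

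The label held only in part for division, and differently in the groups. Of the members, 13 of 16, 63 of 88 and 163 of 215 held both Mki67 and Top2a in vehicle 1 to 3, which is 81.2%, 71.6% and 75.8%. In the treated mice 18 of 72, 26 of 94 and 49 of 216 held both, which is 25.0%, 27.7% and 22.7%. Most remaining members held Mki67 alone: 2, 22 and 42 cells in vehicle and 51, 65 and 160 cells in treated mice. The median number of Mki67 and Top2a UMIs together was 7.5, 7 and 6 in vehicle and 3 in each treated mouse. The typical treated member was thus a cell with few Mki67 UMIs and no Top2a.

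The other mitosis genes describe such cells without using the rule. These are 38 genes of spindle, kinetochore and cytokinesis, counted without Mki67 and Top2a. In members with both genes they summed to 4353, 6060 and 4374 CPM in vehicle 1 to 3. The corresponding treated members held 2808, 1793 and 1468 CPM. In members with Mki67 and no Top2a the sum was 1923, 1828 and 1701 CPM in vehicle and 548, 182 and 171 CPM in treated mice. The other C1q cells held 153, 293 and 250 CPM in vehicle and 179, 184 and 156 CPM in treated mice. In treated 2 and treated 3 the members with Mki67 alone were thus close to the cells that were not members, while in every vehicle mouse they were far above them. The vehicle 1 value of 1923 CPM rests on 2 cells.

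**Figure D1:**
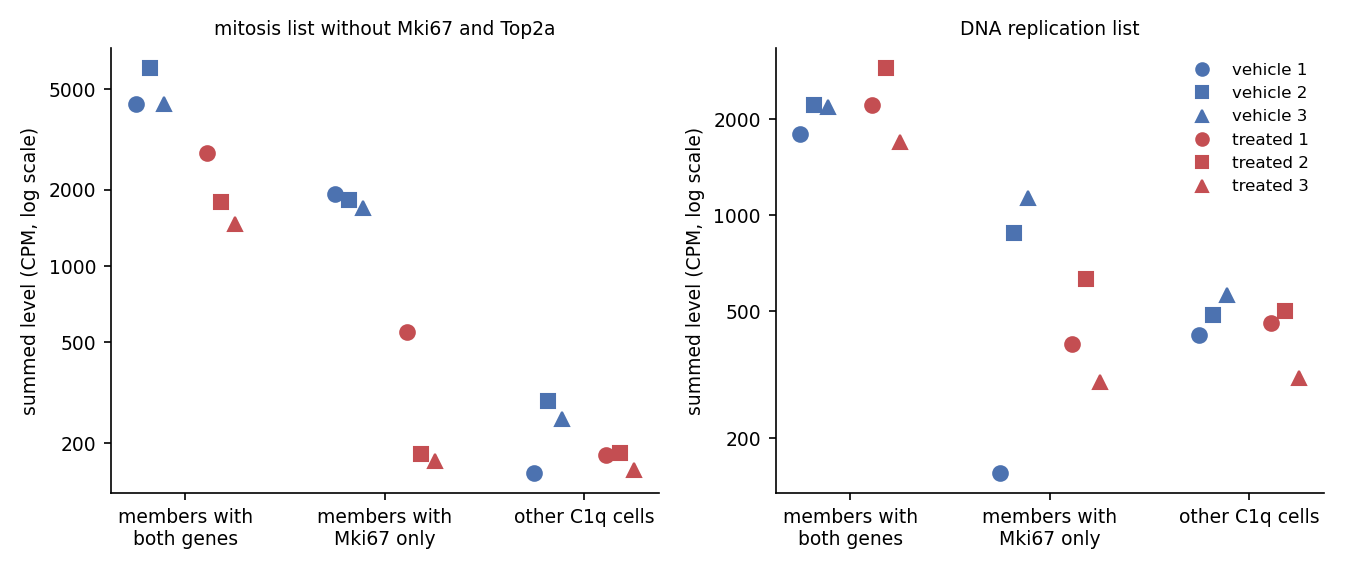
Summed level (CPM, log scale) of the mitosis list without Mki67 and Top2a (left) and of the DNA replication list (right) in members with both genes, members with Mki67 only and other C1q cells; each point is a mouse. Treated members with both genes lie below the vehicle ones for mitosis (1468 to 2808 against 4353 to 6060 CPM), while the replication values overlap.

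DNA replication genes gave another picture in members with both genes. In members with both genes the 30 genes of this list, among them the MCM helicase and the nucleotide enzymes, summed to 1800, 2222 and 2189 CPM in vehicle. The treated values were 2216, 2891 and 1699 CPM, so the groups overlapped. In members with Mki67 and no Top2a the sums were 156, 877 and 1135 CPM in vehicle mice, the first from 2 cells. In the corresponding treated members they were 396, 632 and 301 CPM. The other C1q cells held 421, 487 and 563 CPM in vehicle and 458, 501 and 309 CPM in treated mice. In treated mice the members with Mki67 alone were close to the other C1q cells, above them in treated 2 only. Members with both genes were thus well above other C1q cells for replication in all 6 mice, and for mitosis too, with lower mitosis values in each treated mouse than in any vehicle mouse. Treated members with both genes were also deeper than vehicle ones, at a median of 17619 to 19936 UMIs against 8709 to 10954, and a deeper cell needs less of each gene to show both.

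Cells just inside and just outside the limit of 2 UMIs show where the groups part. In vehicle mice the other mitosis genes stood at 165, 588 and 471 CPM in C1q cells with 1 UMI of Mki67 and Top2a, and at 1448, 807 and 981 CPM in those with 2. The value of 1448 CPM in vehicle 1 rests on 3 cells, and the 1 cell with 3 UMIs there held 274 CPM. In treated mice the values were 203, 176 and 163 CPM with 1 UMI and 241, 170 and 158 CPM with 2. Cells with no such UMI held 171, 185 and 154 CPM in treated mice, so cells at the limit were near cells with none there. Only cells with 4 or more UMIs stood clear, at 2044, 1608 and 998 CPM, against 4644, 6570 and 4762 CPM in vehicle. These are descriptions of cells that the rule itself sorted.

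**Figure D2:**
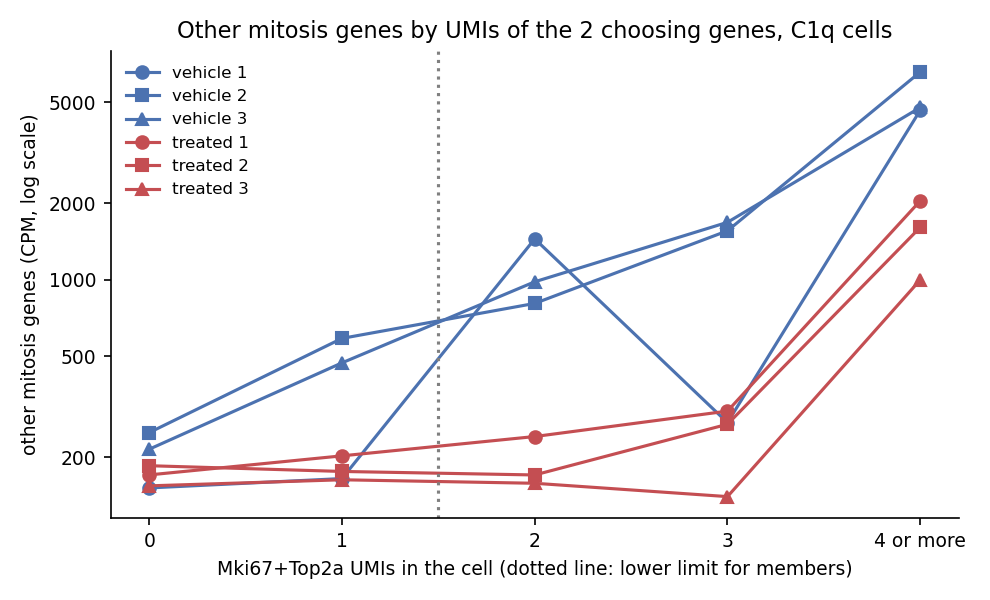
Other mitosis genes (CPM, log scale) in C1q cells by their Mki67+Top2a UMIs, 1 line per mouse; members lie to the right of the dotted line. Treated lines stay flat up to 2 UMIs (158 to 241 CPM) and vehicle lines are already at 807 to 1448 CPM there, the highest from 3 cells of vehicle 1.

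The first comparison asks whether fewer macrophages were dividing 24 h after the drugs. By the rule, dividing cells were 4.12%, 11.8% and 10.8% of C1q cells in vehicle 1 to 3, or 16 of 388, 88 of 743 and 215 of 1991 cells. In treated 1 to 3 they were 11.2%, 11.2% and 11.5%, or 72 of 643, 94 of 843 and 216 of 1881 cells. Exact 95% binomial limits, which cover counting error only, were 2.38 to 6.61% for vehicle 1, 9.61 to 14.4% for vehicle 2 and 9.47 to 12.2% for vehicle 3. For the treated mice they were 8.87 to 13.9%, 9.11 to 13.5% and 10.1 to 13.01%. Vehicle 1 alone was low, and the other 5 mice lay within counting error of each other. The mean was 11.3% ± 0.18 (SD, n = 3) in treated and 8.92% ± 4.19 (SD, n = 3) in vehicle mice. The difference of 2.36 percentage points had p = 0.6 in a two-sided exact permutation test over mice, whose smallest possible p with 3 against 3 is 0.1. Without vehicle 1 it was -0.044 points (exact p = 0.9). Without vehicle 2 it was 3.82 points, with no overlap (exact p = 0.1). Without cells holding more than 2 fibroblast UMIs or at least 20 UMIs of S100a8 and S100a9, an alternative added after the data were seen, the shares were 3.95%, 8.996% and 9.59% in vehicle and 11.4%, 11.2% and 10.7% in treated mice. Every treated mouse was then above every vehicle mouse, by 3.57 points on average (exact p = 0.1).

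The order of the groups turned when depth was evened out. When the Mki67 and Top2a UMIs were drawn again at 4000 UMIs per C1q cell, leaving out shallower cells, the shares were 4.67%, 12.3% and 15.1% in vehicle 1 to 3. In treated 1 to 3 they were 5.58%, 6.27% and 3.12%. Vehicle 2 and vehicle 3 then stood above every treated mouse and vehicle 1 stood among them (difference -5.70 points, exact p = 0.3). Without vehicle 1 the difference was -8.70 points (exact p = 0.1, the smallest this 2 against 3 design allows). Shallower cells left out were 31.2 to 53.3% of C1q cells in vehicle and 7.97 to 50.8% in treated mice. At 2000 UMIs per cell the means were 1.92% treated and 4.47% vehicle (exact p = 0.3).

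With a stricter definition every treated mouse was below every vehicle mouse. C1q cells with at least 1 UMI each of Mki67 and Top2a were 3.35%, 8.48% and 8.19% in vehicle 1 to 3 and 2.80%, 3.08% and 2.60% in treated 1 to 3. The groups did not overlap (difference -3.84 points, exact p = 0.1, the smallest possible). Vehicle 1 (13 of 388 cells) and treated 2 (26 of 843 cells) were close, and counting error was not assessed for these shares. The median C1q cell held 4396, 5077 and 3822 UMIs in vehicle and 7516, 3940 and 12734 UMIs in treated mice, so treated 2 was shallower than vehicle 1 and vehicle 2. This definition and the shares with only the 2 genes thinned were chosen after the data were seen. At a limit of 3 UMIs in place of 2 the difference was -0.603 points and at 1 UMI it was 7.28 points, so the direction of the share depends on the limit. In neutrophils, which should hold little Mki67 or Top2a, 0 to 9.68% of cells in vehicle and 0 to 2.30% in treated mice reached 2 UMIs, at a median of 764 to 1690 UMIs in vehicle and 1576 to 2322 in treated mice. The highest of these shares, 15 of 155 cells in vehicle 1, came with 1812 CPM of other mitosis genes.

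**Figure D3:**
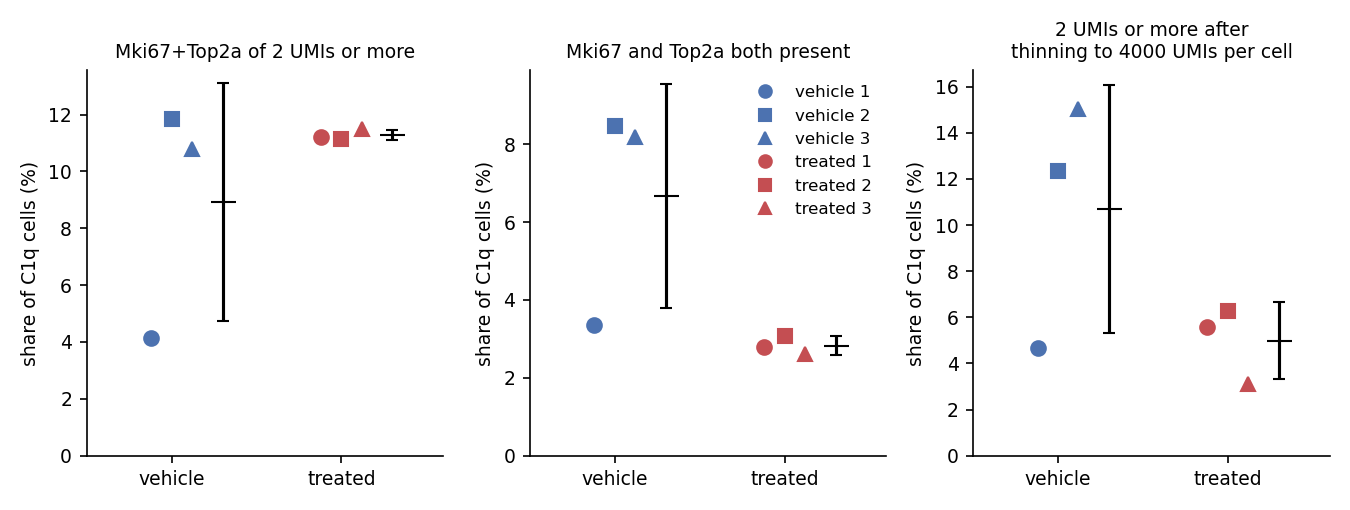
Share of C1q cells counted as dividing (%), by mouse, under the rule (left), with both genes present (middle) and after thinning the 2 genes to 4000 UMIs per cell (right); bars are group means ± SD, n = 3. Treated mice are at 11.2 to 11.5% under the rule and at 2.60 to 3.08% with both genes, below every vehicle mouse in the latter.

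Levels summed over all C1q cells, which no rule on dividing genes had sorted, gave the same order for mitosis. The 38 other mitosis genes summed to 507, 1245 and 983 CPM in vehicle 1 to 3 and to 425, 348 and 214 CPM in treated 1 to 3 (exact p = 0.1). Top2a stood at 41.0, 104 and 105 CPM in vehicle and at 27.7, 22.8 and 12.3 CPM in treated mice (exact p = 0.1). Both measures were lower in every treated than in any vehicle mouse. Other classes also had lower mitosis sums in treated mice than in vehicle 2 and vehicle 3. Endothelial cells held 176, 1857 and 1500 CPM in vehicle and 286, 191 and 366 CPM in treated mice. Fibroblasts held 99.7, 1338 and 1010 CPM against 483, 157 and 589 CPM. In tumour epithelial cells the groups overlapped, at 1353, 915 and 1550 CPM against 1186, 1344 and 668 CPM. Whether the classes differed in this was not tested. Mki67 differed less, at 29.7, 121 and 99.5 CPM in vehicle and 72.7, 74.1 and 42.8 CPM in treated mice (exact p = 0.5), and without vehicle 1 the groups did not overlap (exact p = 0.1). The replication list stood at 529, 774 and 863 CPM in vehicle and at 587, 768 and 368 CPM in treated mice (exact p = 0.4). Fewer cycling cells and less of these transcripts per cycling cell cannot be told apart in such sums.

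The balance of the 2 choosing genes itself differed. Over all C1q cells there were 0.726, 1.16 and 0.952 Mki67 UMIs per Top2a UMI in vehicle 1 to 3 and 2.63, 3.24 and 3.49 in treated 1 to 3 (exact p = 0.1, the smallest possible). In the tumour epithelial cells of the same libraries the ratio was 0.673 to 0.771 in vehicle and 0.458 to 1.07 in treated mice. In treated mice it was 0.200 to 0.728 in fibroblasts and 0.600 to 1.80 in endothelial cells. Each treated C1q value was above every treated value in these 3 classes, and the difference between classes was not tested. Neutrophils held few such UMIs, with ratios of 1.33 and 0.711 in treated 1 and treated 3 and with 5 Mki67 UMIs and 0 of Top2a in treated 2. Mki67 stood at 14.9, 1.43 and 40.3 CPM in fibroblasts of treated 1 to 3 and at 17.2, 14.6 and 12.0 CPM in other C1q cells, with no single order. The comparisons over C1q cells were a family of 5 (mitosis list, Top2a, Mki67, replication list and the ratio), and none can pass an adjusted threshold of 0.05 with 3 mice a group.

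Tumour epithelial cells served as a second cycling population. Of cells with Epcam, at least 5 keratin UMIs and no C1q or Ptprc, 22 of 139, 236 of 1868 and 642 of 1693 met the limit on Mki67 and Top2a in vehicle mice, and 43 of 303, 39 of 225 and 53 of 444 in treated mice. The means were 22.1% ± 13.8 and 14.5% ± 2.71 (SD, n = 3 each, exact permutation p = 0.6). Vehicle 3 set this difference of -7.64 points, which was 0.257 points without it. The log2 ratio of the C1q share to the epithelial share was -0.345 in treated and -1.28 in vehicle mice, a difference of 0.937 (exact p = 0.3). It was 1.53 without vehicle 2, with no overlap (exact p = 0.1), and 0.608 without vehicle 1. Among monocytes low in C1q the rule found 0, 9 and 16 dividing cells in vehicle and 0, 1 and 12 in treated mice, of 12 to 500 cells a mouse. Their mean share was 2.50% in vehicle and 4.25% in treated mice (exact permutation p = 0.9), and without treated 3 the difference turned from 1.76 to -1.25 points.

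Next, the members were set beside the other C1q cells of the same mouse. Since Mki67 and Top2a chose the members, this is a description with no test. A log2 ratio of CPM was taken in each mouse with 10 CPM added to both sides, over 7961 genes with a mean of at least 10 CPM in either class. In all 6 mice together, 25 genes (0.314%) were at least 2-fold higher in members and 0 genes (0%) at least 2-fold lower. Of the 25, 13 were of the mitosis list, Mki67 and Top2a among them, and 5 of the replication list. Counted by group, 177 genes were 2-fold higher in every vehicle mouse and 26 in every treated mouse, with 37 and 11 of the 38 other mitosis genes among them.

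The highest ratios in every mouse included genes of S phase, of chromatin and of mitosis. Hist1h1b, a linker histone made in S phase, was higher by 2.84, 4.29 and 5.13 on the log2 scale in vehicle and by 3.49, 3.48 and 2.54 in treated mice. Pclaf, a clamp-binding factor of replicating DNA, was higher by 4.65, 4.14 and 3.91 and by 2.95, 2.88 and 2.17. Its vehicle ratios were all above its treated ones. Stmn1, a regulator of microtubules, had ratios of 4.00, 3.28 and 2.99 in vehicle and 2.39, 2.35 and 1.88 in treated mice. Rrm2, the small subunit of ribonucleotide reductase, had 2.71, 2.81 and 2.76 against 2.10, 2.16 and 1.83. Thymidylate synthase (Tyms) and thymidine kinase (Tk1) lay between 1.13 and 2.97 in all mice. Among mitosis genes Birc5, of the chromosomal passenger complex, had 4.23, 3.91 and 3.76 in vehicle and 3.15, 2.35 and 1.75 in treated mice. Ube2c, the ubiquitin-conjugating enzyme of mitotic exit, had 4.44, 4.61 and 4.21 against 2.75, 1.18 and 1.18. For each gene named here except Hist1h1b the lowest vehicle ratio exceeded the highest treated one.

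Other genes were lower in members of every mouse. Retnla, a secreted product of interleukin-4-stimulated macrophages, showed the lowest ratios, at -2.17, -0.93 and -3.55 in vehicle and -3.64, -4.17 and -1.67 in treated mice. Saa3, an acute-phase protein, ranged from -2.67 to -0.62. Pltp, a phospholipid transfer protein, ranged from -1.60 to -0.40, and the lectin receptor gene Clec4a1 from -1.62 to -0.50. Selenop, the selenium carrier of resident-type macrophages, ranged from -1.49 to -0.26. The ratios of these 5 genes overlapped between the groups.

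State lists of macrophages had smaller ratios than the lists of the cell cycle. The median gene of the MHC class II list had ratios of -1.15, -0.75 and -0.49 in vehicle and -0.35, -0.19 and -0.09 in treated mice, lower in members of all 6. The list of CSF receptors and macrophage growth factors lay between -0.32 and -0.04. Oxidative phosphorylation lay between 0.09 and 0.30 and Myc targets with ribosome biogenesis between 0.10 and 0.36, higher in members of all 6 mice. The inflammatory list had ratios below 0 in every vehicle mouse (-0.26, -0.10 and -0.29) and above 0 in every treated mouse (0.46, 0.52 and 0.42). The list of MAPK output showed the same signs, with -0.20, -0.19 and -0.39 in vehicle and 0.01, 0.04 and 0.02 in treated mice. Over all 7961 genes the median lay between -0.02 and 0.08. In treated 1 to 3 it was 0.058, 0.076 and 0.032, above the MAPK output value of the same mouse.

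**Figure D4:**
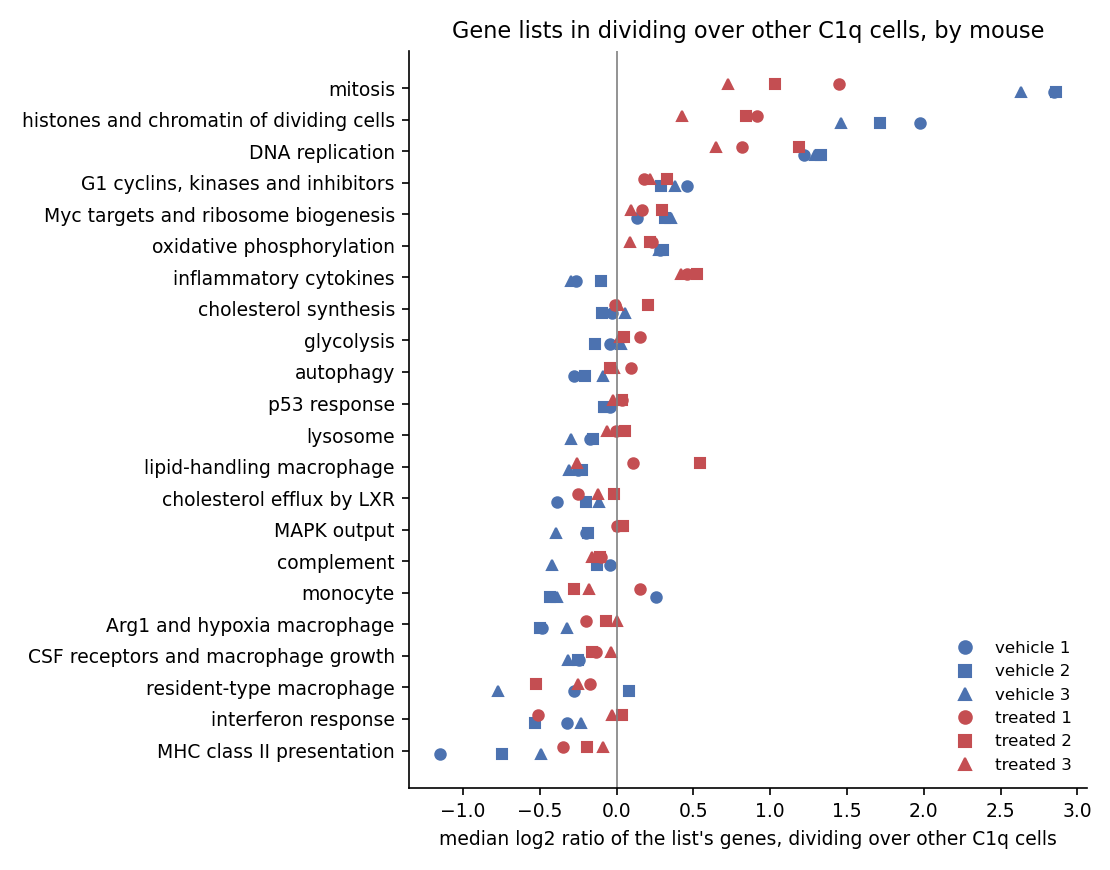
Median log2 ratio of each gene list, dividing over other C1q cells of the same mouse, 1 point per mouse. Mitosis is at 2.64 to 2.86 in vehicle and 0.73 to 1.45 in treated mice, while the list of CSF receptors lies between -0.32 and -0.04.

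The second comparison asks how the members' expression differed between the groups. Counts of members were summed per mouse and tested with edgeR's quasi-likelihood test over 8522 genes, with Benjamini-Hochberg adjustment. In all, 113 genes (1.33%) were lower and 32 (0.375%) higher in treated members at an adjusted p under 0.05. Of the lower genes 29 were mitosis genes other than Mki67 and Top2a, and the higher ones included genes of the lysosome and of lipid handling. These calls describe the members as the rule took them, which in treated mice were mostly cells with Mki67 alone. Among members with both genes 1 gene passed (537 at an unadjusted p under 0.05), and among members chosen on counts thinned to 4000 UMIs 0 passed (600 at an unadjusted p under 0.05). The last set was chosen with every term of the rule read from thinned counts, the excluded genes and keratins too. It is therefore not a subset of the 701 members, and in vehicle 2 it held 107 cells against 88 members. Leaving out vehicle 2 left 5 calls and leaving out treated 2 left 9, against 203 without vehicle 1, with 1, 3 and 17 of these mitosis genes among them.

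Of the 38 mitosis genes other than Mki67 and Top2a, 29 fell in treated members, 0 rose and 9 did not pass the test (edgeR, adjusted p under 0.05). Their median log2 fold change was -2.40, against -0.0020 over all genes and -0.50 for the 21 of them tested in other C1q cells. The median was -1.37 in members with both genes and -1.04 in those chosen at 4000 UMIs, and in both of these 0 of the 38 passed. Cdc20, the activator of the anaphase-promoting complex (chromosome 4, 118432901 to 118437352), stood at 78.1, 96.8 and 53.8 CPM in vehicle and at 17.9, 6.28 and 6.51 CPM in treated members. Every treated mouse was below every vehicle mouse, and the log2 fold change was -2.91 ± 0.45 (SE, edgeR adjusted p = 0.014). The cyclin gene Ccnb1 (chromosome 13, 100778650 to 100786570) stood at 78.1, 106 and 81.6 CPM against 27.6, 13.3 and 8.07 CPM. Its log2 fold change was -2.48 ± 0.42 (SE, edgeR adjusted p = 0.020).

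Most other genes with the largest falls were also of the spindle and kinetochore. Cenpf, a kinetochore protein, fell by 2.99 on the log2 scale, from 115, 304 and 177 CPM to 48.0, 16.0 and 11.7 CPM. Nusap1, a microtubule-binding protein, stood at 161, 145 and 173 CPM in vehicle and 34.2, 21.6 and 14.1 CPM in treated members. Birc5 stood at 349, 370 and 282 CPM against 91.1, 55.8 and 27.4 CPM. The kinetochore motor Cenpe, the motor Kif20b, the cell cycle gene Cdca3 and the hyaluronan receptor Hmmr, which binds spindle microtubules, fell by 2.47 to 2.70 on the log2 scale. The groups did not overlap for any of these 9 genes, as the rule for naming them required, and for Kif20b they nearly met (15.6 CPM in vehicle 1 and 15.4 CPM in treated 1). By the smallest p the list was led by Racgap1, Ect2 and Plk1, regulators of cytokinesis and mitotic entry, which fell by 2.40, 3.21 and 3.13, and by Top2a, which the rule used.

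Chromatin genes of dividing cells followed, with 5 of 15 lower and 0 higher. H2afx, a histone variant marked at DNA breaks, stood at 271, 212 and 179 CPM in vehicle and 74.0, 46.7 and 39.6 CPM in treated members. Hmgb2, a chromatin protein, stood at 1468, 1101 and 1059 CPM against 386, 347 and 285 CPM, a log2 fold change of -1.84 ± 0.32 (SE, edgeR adjusted p = 0.021). The chromatin protein Hmgb1 and the tubulins Tubb5 and Tubb4b were the others. Of 30 replication genes only Tyms passed, at 156, 206 and 145 CPM against 57.7, 73.2 and 34.6 CPM, and the median log2 fold change of the list was -0.82. Of 19 genes of the G1 list only Cdkn2d, an inhibitor of the G1 kinases, passed, falling by 1.52 on the log2 scale.

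Many mitosis genes carry shared promoter elements, and 3 promoters are shown, of the genes that chose the members and of Cdc20. The elements are the CCAAT box, bound by the factor NF-Y, and the cell cycle homology region with the letters TTTGAA, bound by the DREAM and MuvB complexes that repress and then activate late cell cycle genes. RefSeq promoter windows of 300 bases on GRCm38.p6, 250 before and 50 after a start site, matched 34 of the 40 mitosis genes in 36 windows. Either strand counted, and the letters of the motifs do not overlap each other. The letters TTTGAA were present in 77.8% of the mitosis windows, 10.0% of 30 replication windows and 17.9% of all 32851 windows. CCAAT was present in 77.8%, 63.3% and 37.4%. Both were present in 66.7%, 6.67% and 6.95%. A match describes letters and not a site in use. The 250 bases before the start follow, 5′ to 3′ on the gene's strand, with matches to either motif on either strand in capitals. The intervals are chr7:135716380-135716629, chr11:99024190-99024439 and chr4:118437344-118437593, all on the minus strand.
Mki67: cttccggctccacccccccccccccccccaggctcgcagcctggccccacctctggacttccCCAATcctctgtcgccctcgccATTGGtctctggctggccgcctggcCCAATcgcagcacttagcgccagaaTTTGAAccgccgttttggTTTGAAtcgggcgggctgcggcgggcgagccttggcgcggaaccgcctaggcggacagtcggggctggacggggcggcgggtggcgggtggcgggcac
Top2a: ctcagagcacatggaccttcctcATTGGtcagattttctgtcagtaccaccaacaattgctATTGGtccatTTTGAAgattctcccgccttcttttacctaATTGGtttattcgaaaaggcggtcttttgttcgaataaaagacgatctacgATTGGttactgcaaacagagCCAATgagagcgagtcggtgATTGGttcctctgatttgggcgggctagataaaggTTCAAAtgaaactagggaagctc
Cdc20: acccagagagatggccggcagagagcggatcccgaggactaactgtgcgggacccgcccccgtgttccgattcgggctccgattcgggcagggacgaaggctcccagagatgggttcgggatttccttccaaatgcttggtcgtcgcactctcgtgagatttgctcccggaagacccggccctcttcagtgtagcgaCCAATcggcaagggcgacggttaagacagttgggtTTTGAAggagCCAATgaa

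All 3 hold both elements, and were chosen for that after the letters were seen. Other genes of the largest falls do not: in the same 250 bases Ccnb1 has 0 matches to TTTGAA and 2 to CCAAT, Cenpe has 0 and 1, and Birc5 has 0 and 0. Mki67 and Top2a, the pair that chose the members, thus share these letters, with 2 matches to TTTGAA and 3 to CCAAT in Mki67, 2 and 6 in Top2a, and 1 and 2 in Cdc20. Mki67 and Top2a nevertheless differed in treated C1q cells, as the UMI ratio above shows.

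The genes that rose in treated members were led by lysosomal and lipid genes. Of 33 lysosome genes tested, 4 rose and 0 fell, with a median log2 fold change of 0.65 and 33 of 33 fold changes above 0. Atp6v0d2, a subunit of the lysosomal proton pump (chromosome 4, 19876841 to 19922605), stood at 0, 1.24 and 4.35 CPM in vehicle and at 79.7, 55.8 and 130 CPM in treated members. The groups were far apart (log2 fold change 4.96 ± 0.54, SE, edgeR adjusted p = 0.0053), and it was the gene that passed among members with both genes. Ctsd, the protease cathepsin D (chromosome 7, 142375911 to 142388038), stood at 968, 719 and 1025 CPM in vehicle and at 3696, 2781 and 2943 CPM in treated members. Lipa, the lysosomal acid lipase, stood at 31.2, 65.8 and 65.2 CPM against 246, 186 and 186 CPM, a log2 fold change of 1.91 ± 0.28 (SE, edgeR adjusted p = 0.013). Psap, the precursor of the saposins that help lipid breakdown, stood at 1640, 1216 and 1680 CPM against 4397, 4611 and 3438 CPM.

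The lysosomal difference was as large in members with both genes. The lysosome list summed to 14404, 13240 and 12716 CPM in vehicle members with both genes and to 28166, 27952 and 19742 CPM in the treated ones, with no overlap. In the other C1q cells it summed to 16802, 15729 and 16163 CPM in vehicle and 26133, 24841 and 24454 CPM in treated mice. The median log2 fold change of the list was 0.51 there, although 0 of 34 genes passed the test in those cells. Ctsd had log2 fold changes of 1.80 in members, 2.22 in members with both genes (edgeR adjusted p = 0.056) and 1.25 in other C1q cells (edgeR adjusted p = 0.48).

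Of the lipid-handling list, 2 of 15 genes rose, Ctsd again and Fabp4, a fatty acid carrier. Fabp4 stood at 10.4, 3.72 and 12.5 CPM in vehicle and 79.7, 80.2 and 47.1 CPM in treated members. The list's median log2 fold change was 1.29. Abcg1, which exports cholesterol and is a target of the sterol receptor LXR, rose from 10.4, 38.5 and 31.5 CPM to 84.6, 62.1 and 131 CPM, 1 of 12 genes of its list. It passed in 0 of the 6 fits that left out 1 mouse each, while Atp6v0d2 passed in 5 and the other genes of the largest changes in 1 to 4. Gdf15, a stress cytokine, rose as 1 of 11 genes of the p53 list, from 1.24 to 5.21 CPM in vehicle to 19.5 to 31.7 CPM in treated members. The matricellular gene Ccn3, the polo-like kinase gene Plk2, Tmcc3, Tent5a and the transcript AY036118 were the other large rises, with log2 fold changes from 1.73 to 1.91. None of these 5 had groups that overlapped, as the rule for naming them required.

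**Figure D5:**
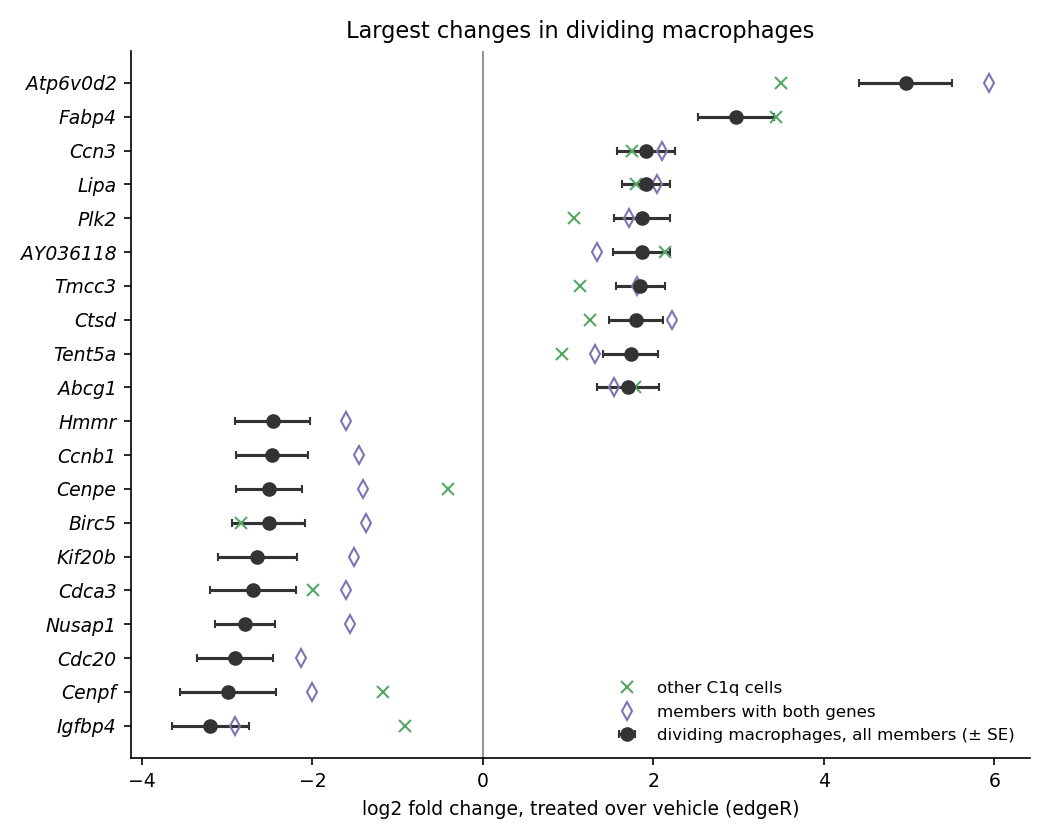
Log2 fold change, treated over vehicle, of the 10 largest rises and 10 largest falls in members (black, ± SE), with the value in members holding both genes (diamonds) and in other C1q cells (crosses) where tested. Falls are nearer 0 in members with both genes for all 10 genes, while rises of Lipa and Ctsd are as large there.

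Some of the falls were of genes outside the cell cycle. Igfbp4, which binds insulin-like growth factors and is abundant in fibroblasts, stood at 161, 765 and 320 CPM in vehicle and at 36.6, 41.8 and 50.01 CPM in treated members. Its adjusted p was 0.013 by edgeR, and 0.085 without cells holding more than 2 fibroblast UMIs or at least 20 UMIs of S100a8 and S100a9. Its log2 fold change was then -2.12, against -3.20 with them. Without such cells 133 genes passed, 29 of them mitosis genes other than Mki67 and Top2a, as many as with them. Of 13 genes of the monocyte list, 2 fell, 0 rose and 11 did not pass. Ly6a and Plac8 fell by 4.33 and 3.00, with Ly6a at 15.6, 64.5 and 65.8 CPM against 1.63, 2.09 and 3.13 CPM. The separate set of monocyte markers was highest in treated 3, as given above. Of the remaining lists, 0 genes passed among 14 of CSF receptors and growth, 19 of MAPK output, 26 of autophagy, 19 of cholesterol synthesis, 15 of resident-type macrophages, 14 of Arg1 and hypoxia and 12 of MHC class II. The same was true of 15 interferon, 18 inflammatory, 12 complement, 24 Myc, 17 glycolysis and 24 oxidative phosphorylation genes. Csf1r stood at 515, 436 and 322 CPM in vehicle and 499, 592 and 436 CPM in treated members. Junb, an output of MAPK signalling, stood at 781, 962 and 889 CPM against 1477, 1575 and 1721 CPM (edgeR adjusted p = 0.13), with no overlap. Cd74, Arg1 and Mrc1 overlapped between the groups.

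The other C1q cells of the same mice gave 0 calls of 10738 genes by edgeR, with 761 at an unadjusted p under 0.05 and 105 calls by DESeq2. The difference in response between members and other C1q cells was therefore tested itself, as an interaction with the mouse as a block, over 10688 genes. It passed for 178 genes (1.67%) with a higher and 132 (1.24%) with a lower response in members. With DESeq2 size factors the split was 131 and 146. Of the 38 other mitosis genes, 15 had a lower response in members, and of 18 inflammatory genes, 12 had a higher one. Among members with both genes these counts were 2 and 1, and among members chosen at 4000 UMIs 1 and 1. The median difference in response of the 38 mitosis genes was -1.65 in all members, -0.63 in those with both genes and 0.42 in those chosen at 4000 UMIs, so its direction depends on how members are chosen. Without cells holding fibroblast or neutrophil transcripts 250 genes passed.

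In treated mice the inflammatory list was highest in members with Mki67 alone. It summed to 15523, 11433 and 10122 CPM in those cells of treated 1 to 3, to 9042, 10971 and 8699 CPM in members with both genes and to 10140, 7561 and 7259 CPM in other C1q cells. Nfkbia, the inhibitor induced by NF-kB, stood at 2257, 1488 and 1669 CPM in treated members with Mki67 alone, against 1378, 1056 and 1180 CPM in treated other C1q cells of at least 8000 UMIs. Gadd45b, a stress-induced gene, stood at 701, 714 and 595 CPM against 547, 505 and 429 CPM in the same sets. Dusp2, a phosphatase of MAP kinases, stood at 257, 152 and 150 CPM against 116, 100 and 97.3 CPM. All 3 genes were higher in members with Mki67 alone in each treated mouse. In vehicle mice the list stood at 8940, 12776 and 10157 CPM in members with Mki67 alone and at 3993, 11088 and 12593 CPM in other C1q cells, with no single order. The vehicle 1 value of 8940 CPM rests on 2 cells. These sets were defined after the data were seen and no test was made between them.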

How the data were processed

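Cells of 6 tumours, 1 library per mouse, were measured with 10x Genomics droplet libraries. The deposited UMI counts were made with Cell Ranger 5.0.1 on mm10, per the submitters' processing notes. Gene coordinates come by identifier from GENCODE M21 (GRCm38). Cells had at least 500 UMIs, 250 genes and at most 20% mitochondrial UMIs. Doublets were kept, and leaving out the highest Scrublet scores was an alternative. Counts were summed over members per mouse (at least 10) and tested with edgeR 4.0.16 (TMM, filterByExpr, robust quasi-likelihood, two-sided, R 4.3.3). P-values were adjusted by Benjamini-Hochberg over all genes. The script was tested on simulated data with 200 changed genes. Of 2-fold changes it recovered 9% in members, 12% in other C1q cells and 55% in the interaction. Of 4-fold changes it recovered 82%, 74% and 81%. False calls were 15 of 106, 17 of 103 and 11 of 147. A gene or list without calls is thus not shown to be unchanged. Shares were compared with exact permutation tests (scipy 1.17.1). DESeq2 1.42.0, scaling, filters, thinning and leaving out each mouse were alternatives. A further allele of the model and 1 gene of the lists are not reported here. Members and lists were chosen with earlier results of these data known.

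Named genes were the 10 largest rises and falls past the threshold, with a log2 change of at least 1, mean log2 CPM from 5 and non-overlapping groups, leaving out predicted, ribosomal, mitochondrial and sex-linked genes and other cell types' markers. Added were up to 4 genes per list, the 15 highest and 10 lowest ratios and 10 interaction genes. Hmgb1, and Dusp2 and the other genes compared between kinds of member, were named after their values were seen.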

Additional observations from a re-analysis of the deposited data

Results flagged for a closer look

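The difference in response between dividing and other C1q cells passed edgeR's test of that difference itself (interaction with the mouse as a block, Benjamini-Hochberg adjustment) for 10 named genes. The value is the log2 fold change of members, treated over vehicle, less that of other C1q cells. It was negative for Smc4 (-1.79), a condensin subunit, Hmgb2 (-1.38), H2afx (-1.76), Incenp (-1.94), of the chromosomal passenger complex, and Arl6ip1 (-1.05). It was positive for the early-response or inflammatory genes Ier3 (1.01), Il1b (0.88), Phlda1 (1.15), Gadd45b (1.00) and Nfkbia (0.84). None of the 10 passed as a change between treated and vehicle in other C1q cells by edgeR, where 0 genes of 10738 passed and 761 had an unadjusted p under 0.05.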

How the results depend on the processing

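With 3 mice a group no share could pass 0.05, so shares are read as values. The difference in the C1q share, 2.36 points, became -3.26 and -6.86 with the whole rule applied to counts thinned to 2000 and 4000 UMIs, and -2.55 and -5.70 with only the 2 genes thinned. It was 7.28 at 1 UMI, 10.2 by the mitosis list, -3.84 with both genes and -0.0441 to 3.82 without each mouse. The C1q-to-epithelial difference was -0.0640 and -0.220 when thinned and -0.520 with both genes, and the monocyte difference was 8.25 at 1 UMI. Of the 20 genes with the largest changes, 223 of 362 values under the alternatives passed and none changed sign.

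The 145 calls in members became 251 by DESeq2, 86 at 3 UMIs, 813 with no filter and 36 without keratin UMIs. Leaving out the highest Scrublet scores gave 173, other C1q cells in the same fit 263 and both genes 1. The calls became 0 at 4000 UMIs and 0 when thinned to 2000 (785 genes, 76 at an unadjusted p under 0.05), and 5 to 203 without each mouse. Vehicle 1 had 9 members without keratin UMIs and 5 when thinned to 2000, under the limit of 10. It was therefore left out of those fits of members, and of the thinned fit of the difference in response. Without keratin UMIs 9 of the 38 other mitosis genes passed, against 17 with only vehicle 1 left out. The 310 interaction calls became 154 by DESeq2, 35 at 4000 UMIs, 36 with both genes, 525 with no filter, 19 when thinned and 186 to 341 without each mouse, falling furthest without vehicle 3 (186), treated 3 (203) and treated 2 (204). The 0 calls in other C1q cells became 105 by DESeq2 and 23 with no filter. The 25 genes higher in members became 123 at a pseudocount of 1 CPM, 50 at 3 UMIs and 25 to 52 without each mouse, and the 0 lower became 5 when thinned. The cause of these changes was not tested.

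With the replicate number as a block, members gave 218 calls and other C1q cells 5. The interaction gave 0 (474 at an unadjusted p under 0.05). In that fit the replicate number took the place of the mouse as block, so members and other C1q cells of a mouse were not paired. The share difference was again 2.36 points, with an exact p of 0.75. Same-numbered mice correlated at 0.185, 0.0461 and 0.160 in members, not all above 0.1, and vehicle 2 did not correlate best with its own number there. In other C1q cells the values were 0.0941, 0.142 and 0.0802, each positive and every other pair negative, so that each mouse correlated best with its own number. This is a hint from the data and not from the design, and the numbers were not taken as pairs.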
